A study of Mus musculus with 18 samples.

Results

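The mitochondrial ribosomal protein genes are the nuclear genes for the protein components of the ribosome inside mitochondria. All genes whose mouse symbol starts with Mrpl or Mrps followed by a digit were taken, which gave 78 of the 14411 genes in the ESC or the EpiLC table, 49 named Mrpl for the large subunit and 29 named Mrps for the small subunit. All 78 were in both tables and had enough counts to be tested in each cell type. The GENCODE M21 annotation holds 83 such symbols, and the other 5 (Mrpl53, Mrpl23-ps1, Mrps36-ps1, Mrps36-ps2 and Mrps36-ps3) were not analysed here. Of the 78, 77 are protein-coding and 1, Mrpl48-ps, is a processed pseudogene. The study exposed mouse embryonic stem cells (ESCs) and the epiblast-like cells (EpiLCs) derived from them to Δ9-THC, the main psychoactive compound of cannabis, and measured poly(A) RNA by sequencing. The 4 groups were ESCs with the vehicle, ESCs with 100 nM Δ9-THC, EpiLCs with the vehicle and EpiLCs with 100 nM Δ9-THC, each with 3 libraries that the labels call biological replicates. Exposure was continuous, so that exposed EpiLCs came from exposed ESCs and their differences are not those of EpiLCs exposed alone. ESCs of a clonal reporter line (Blimp1::mVenus and Stella::ECFP) were kept in 2i and LIF, and EpiLCs were induced from them with activin A and bFGF. The vehicle contained ethanol, the solvent of the Δ9-THC stock, and other lines were not analysed here.

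Mitochondrial ribosomes translate the few mRNAs of the mitochondrial genome, which encode core subunits of the respiratory chain and of the ATP synthase. Their rRNAs come from the mitochondrial genome, whereas their proteins are made in the cytosol from nuclear genes and imported. Naive mouse ESCs draw energy from both glycolysis and respiration, and the move to the primed state brings a shift towards glycolysis. The machinery that makes respiratory chain subunits is therefore of interest in this transition.

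The deposited adjusted counts summed to between 23427551 (EpiLCs, vehicle, library 3) and 32096698 (ESCs, vehicle, library 1) per library. Except for Mrpl48-ps, with 12 to 29 counts per library, each member had at least 114 counts in every library. Levels are given as CPM, the counts scaled to library size, with factors computed over the 12 libraries together. The log2(fold-change) values come from a fit within each cell type and so differ from the ratio of the CPM by a small constant. The adjusted counts come in a table for each cell type, and whether ESCs and EpiLCs were adjusted together is not given in the sources used here, so levels set across the cell types are described without a test. In bulk RNA, fewer cells of a type and less RNA per cell cannot be told apart. The adjusted counts of vehicle and Δ9-THC libraries with the same number deviated in opposite directions from their group means, so that the 6 libraries of a cell type are not independent and the standard errors are too small (the cause was not tested). The p-values measure only the spread between these libraries.

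Markers of the cell types followed the labels. The summed level of 11 naive pluripotency genes was 4614 to 5103 CPM in the ESC libraries, led by Tfcp2l1, and 357 to 424 CPM in the EpiLC libraries, led by Nanog. Primed genes ran the other way, with 192 to 213 CPM for the 6 of 7 in the ESC table (all but Fgf5) and 1813 to 2208 CPM for the 7 in EpiLCs, led there by Dnmt3b. Of the markers of other cells, 5 of 6 endoderm genes were in neither table, and Gata4 stood at 2.37 to 3.41 CPM in ESCs and 0.916 to 1.15 CPM in EpiLCs. Of 4 mesoderm genes each table held 2 (Eomes and T in ESCs, Eomes and Mixl1 in EpiLCs), which summed to 10.3 to 18.1 CPM in ESCs and 5.15 to 7.50 CPM in EpiLCs, with Eomes the highest. Cdx2, Elf5 and Hand1 of the trophectoderm list were in neither table, and its keratins Krt8 and Krt18 summed to 12 to 14.2 CPM in ESCs and 73.5 to 109 CPM in EpiLCs. Fibroblast genes, 2 of 6 in the ESC table and 4 of 6 in the EpiLC table, summed to 5.68 to 7.36 CPM with Col1a1 highest and to 13.9 to 19.6 CPM with Thy1 highest. The part of such other cells in the results below was not tested.

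The members together took a small share of the RNA. Their summed counts made up 0.344% to 0.389% of the counts of an ESC library and 0.404% to 0.488% of an EpiLC library. In vehicle ESCs the members summed to 3559, 3604 and 3876 CPM, and in ESCs with Δ9-THC to 3762, 3715 and 3439.8 CPM. These groups overlapped, with the highest sum in vehicle library 3 and the lowest in Δ9-THC library 3. In EpiLCs the sums were 4878, 4395 and 4880.3 CPM with the vehicle and 4153, 4590.1 and 4106 CPM with Δ9-THC. Vehicle library 2 was the lowest of its group and Δ9-THC library 2 the highest of its own, and the groups overlapped there alone.

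The large subunit genes outweighed the small subunit genes in every library. The ratio of summed Mrpl to summed Mrps CPM was 1.94, 1.94 and 1.92 in vehicle ESCs and 1.94, 1.94 and 1.96 in ESCs with Δ9-THC. It was 2.11, 2.14 and 2.19 in vehicle EpiLCs and 2.18, 2.15 and 2.09 in EpiLCs with Δ9-THC. All 6 EpiLC libraries thus lay above all 6 ESC libraries, by means of 2.15 ± 0.0448 against 1.93 ± 0.00975 (SD, n = 3) with the vehicle, while the exposures overlapped within each cell type. Names and structure differ for 3 members: Mrps18a and Mrps30 sit in the large subunit, and Mrps36 belongs to the oxoglutarate dehydrogenase complex. Grouped by structure, with 51 large and 26 small subunit genes, the ratio was 2.20 in vehicle ESCs, 2.22 in ESCs with Δ9-THC and 2.44 in both EpiLC groups. In such sums the members with high levels weigh most. Mrps2, a small subunit member with a high level in ESCs, was lower in EpiLCs (-0.87 in log2 CPM with the vehicle). The ratio without it was not taken, and how far the difference between the cell types rests on it was not tested. The median over single genes, vehicle EpiLCs minus vehicle ESCs in log2 CPM, was 0.41 for Mrpl and 0.35 for Mrps genes.

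Per kilobase of the principal transcript, the 77 coding members ranged from 5.51 to 149.6 CPM per kb in vehicle ESCs, with a median of 28.6, and from 7.50 to 211 CPM per kb in vehicle EpiLCs, with a median of 36.1. The medians of the Mrpl and the Mrps genes were 30.2 and 27.4 CPM per kb in vehicle ESCs and 39.2 and 31.4 CPM per kb in vehicle EpiLCs. On the same scale, the cytosolic ribosomal protein genes had medians of 954 and 1353 CPM per kb and the respiratory chain genes of the nucleus 98.1 and 92.9, against 9.68 and 9.15 over all coding genes. The median of the members thus lay above that of all coding genes and below those of both other groups in each cell type. Their order was much the same in the cell types, with a Spearman's rho of 0.944 across the 77 coding members, which share libraries and gene lengths. Scaling by all exonic bases in place of the principal transcript kept much of this order in vehicle ESCs (rho = 0.743).

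Per principal transcript, Mrpl42 had the highest level, at 149.6 ± 8.77 CPM per kb (SD, n = 3) in vehicle ESCs and 211 ± 33.6 in vehicle EpiLCs, though on all its exonic bases these means were 27.1 and 38.2. Mrps2 followed in vehicle ESCs, with 73.7 ± 3.19 CPM per kb, which did not differ beyond its spread from the 71.3 ± 4.44 of Mrpl12, the stalk protein that binds translation factors. In vehicle EpiLCs, Mrpl12 came next with 113 ± 14.8 CPM per kb and then Mrpl20 with 97.0 ± 13.1, within the spread of each other. These ranks rest on the length used: on all exonic bases Mrpl12 was the highest coding member, at 61.2 CPM per kb in vehicle ESCs and 96.9 in vehicle EpiLCs, and Mrpl33 the lowest coding member, at 0.757 and 1.95. Per principal transcript, the lowest coding members were Mrps26 and Mrps34, at 5.51 ± 0.247 and 5.59 ± 0.586 CPM per kb in vehicle ESCs and 8.06 ± 0.666 and 7.50 ± 0.972 in vehicle EpiLCs. Mrps34 shares 77.8% of its exonic bases with other genes, and reads there are left uncounted or cannot be told apart without strand. The pseudogene Mrpl48-ps lay below them, at 0.745 ± 0.0665 and 1.42 ± 0.0502 CPM per kb, and its reads could not be fully told apart from those of its source gene Mrpl48.

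Members of the large subunit with known roles spread over this range. Near the peptidyl transferase centre, where peptide bonds form, Mrpl2 stood at 61.2 ± 1.42 CPM per kb in vehicle ESCs and 78.6 ± 7.11 in vehicle EpiLCs, and Mrpl3 at 16.2 ± 0.773 and 16.3 ± 2.60. The stalk base proteins Mrpl10 and Mrpl11 had 25.5 ± 0.824 and 17.8 ± 0.950 CPM per kb in vehicle ESCs and 22.4 ± 2.15 and 29.5 ± 2.98 in vehicle EpiLCs. Their order was thus the opposite in the cell types. Mrpl45, which tethers the ribosome to the inner membrane, had 49.8 ± 0.923 and 59.7 ± 4.0 CPM per kb, and Mrpl58, a peptidyl-tRNA hydrolase built into the large subunit, 9.65 ± 0.772 and 12.6 ± 1.98. The S18 paralog of the large subunit, Mrps18a, had 34.4 ± 2.08 and 45.7 ± 2.82 CPM per kb. Mrps30, the other large subunit protein with a small subunit name, had 17.5 ± 0.932 and 19.7 ± 1.01.

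Small subunit members showed a similar spread. Mrps12, at the decoding centre, stood at 45.0 ± 4.18 CPM per kb in vehicle ESCs and 57.4 ± 7.24 in vehicle EpiLCs, and Mrps7, in the head of the subunit, at 27.4 ± 1.25 and 29.2 ± 1.16. The small subunit paralogs of S18 had 26.7 ± 1.72 (Mrps18b) and 12.1 ± 1.77 (Mrps18c) CPM per kb in vehicle ESCs and 25.9 ± 5.45 and 18.2 ± 4.10 in vehicle EpiLCs. Mrps18b and Mrps18c share 30.5% and 23.2% of their exonic bases with other genes, so both levels are uncertain. Mrps36, the oxoglutarate dehydrogenase subunit, had 36.2 ± 3.21 and 41.8 ± 4.35 CPM per kb.

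Between the cell types, the question was how the levels of the members in EpiLCs stood to those in the ESCs they came from. Nearly all members were higher in vehicle EpiLCs than in vehicle ESCs: 73 of 78 had a higher mean log2 CPM, with a median difference of 0.38 against -0.0017 over the 12410 genes in both tables. The median difference was 0.41 for the Mrpl and 0.35 for the Mrps genes. All 3 vehicle EpiLC libraries lay above all 3 vehicle ESC libraries for 57 members (73.1%), compared with 37.1% of all genes. They lay below them for 1 member, Mrps2 (1.28%), compared with 38.3% of all genes. In the Δ9-THC libraries 67 of 78 members were higher in EpiLCs, with a median difference of 0.27, and 47 lay above and 6 below without overlap. Of all genes 49.7% were higher in the Δ9-THC libraries of EpiLCs, with a median of -0.0040, and 36.6% lay above and 37.7% below without overlap. The cytosolic ribosomal protein genes had a like median of 0.41 (77 of 80 higher), and the nuclear respiratory chain genes a lower one of 0.20 (52 of 80 higher). The mRNAs that these ribosomes translate, held in the tables for 10 mitochondrial genes, were all higher in vehicle EpiLCs without overlap, by a median of 1.119. These differences are set across the tables of the cell types and were not tested.

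The largest increases were all at least 1.9-fold on the scale of mean CPM. Mrpl33, a small protein of the large subunit, had 5.33, 5.46 and 5.85 CPM in vehicle ESCs and 17.7, 9.86 and 15.3 CPM in vehicle EpiLCs, a difference of 1.31 in log2 CPM and 2.57-fold in mean CPM. Its EpiLC libraries were the more variable, with library 2 the lowest, but each was above every ESC library. The annotated gene is long, and whether all its reads come from the usual transcript was not tested. Mrpl20 had 36.4, 36.2 and 41.0 CPM in vehicle ESCs and 82.8, 76.4 and 63.1 CPM in vehicle EpiLCs, a log2 difference of 0.96 with no overlap. Mrpl18, a protein of the large subunit, had 37.8, 35.5 and 39.8 CPM and 83.1, 60.8 and 80.6 CPM, a log2 difference of 0.98. Its vehicle EpiLC library 2 was again the lowest of its group and still above the ESC libraries. For Mrpl34 the log2 difference was 0.93, from 27.9, 27.5 and 33.6 CPM to 60.0, 50.4 and 59.3 CPM. The small subunit gene Mrps21 reached 40.2, 31.2 and 37.9 CPM in vehicle EpiLCs against 18.1, 17.5 and 21 CPM in vehicle ESCs, a log2 difference of 0.94. All 5 were also higher in the EpiLC libraries with Δ9-THC, with log2 differences of 0.78 for Mrpl33, 0.70 for Mrpl20, 0.70 for Mrpl18, 0.90 for Mrpl34 and 0.61 for Mrps21.

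Mrps2 went the other way. This small subunit gene (ENSMUSG00000035772, chr2:28468066-28471178, GRCm38) had 148, 151 and 161 CPM in vehicle ESCs and 86.0, 87.9 and 78.2 CPM in vehicle EpiLCs, 0.548-fold in mean CPM and -0.87 in log2 CPM. With Δ9-THC it had 156, 154 and 144 CPM in ESCs and 84.3, 82.5 and 90.9 CPM in EpiLCs. The cell types were far apart at each exposure, and within a cell type the exposures overlapped. The other 4 members with a lower mean log2 CPM in vehicle EpiLCs all overlapped between the vehicle libraries of the cell types. These were Mrpl10 (a log2 difference of -0.19), Mrpl39 (-0.14), Mrps18b (-0.067) and Mrpl3 (-0.0086). In the Δ9-THC libraries, Mrpl10 (-0.21) and Mrpl39 (-0.27) were lower in EpiLCs without overlap.

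**Figure D1:**
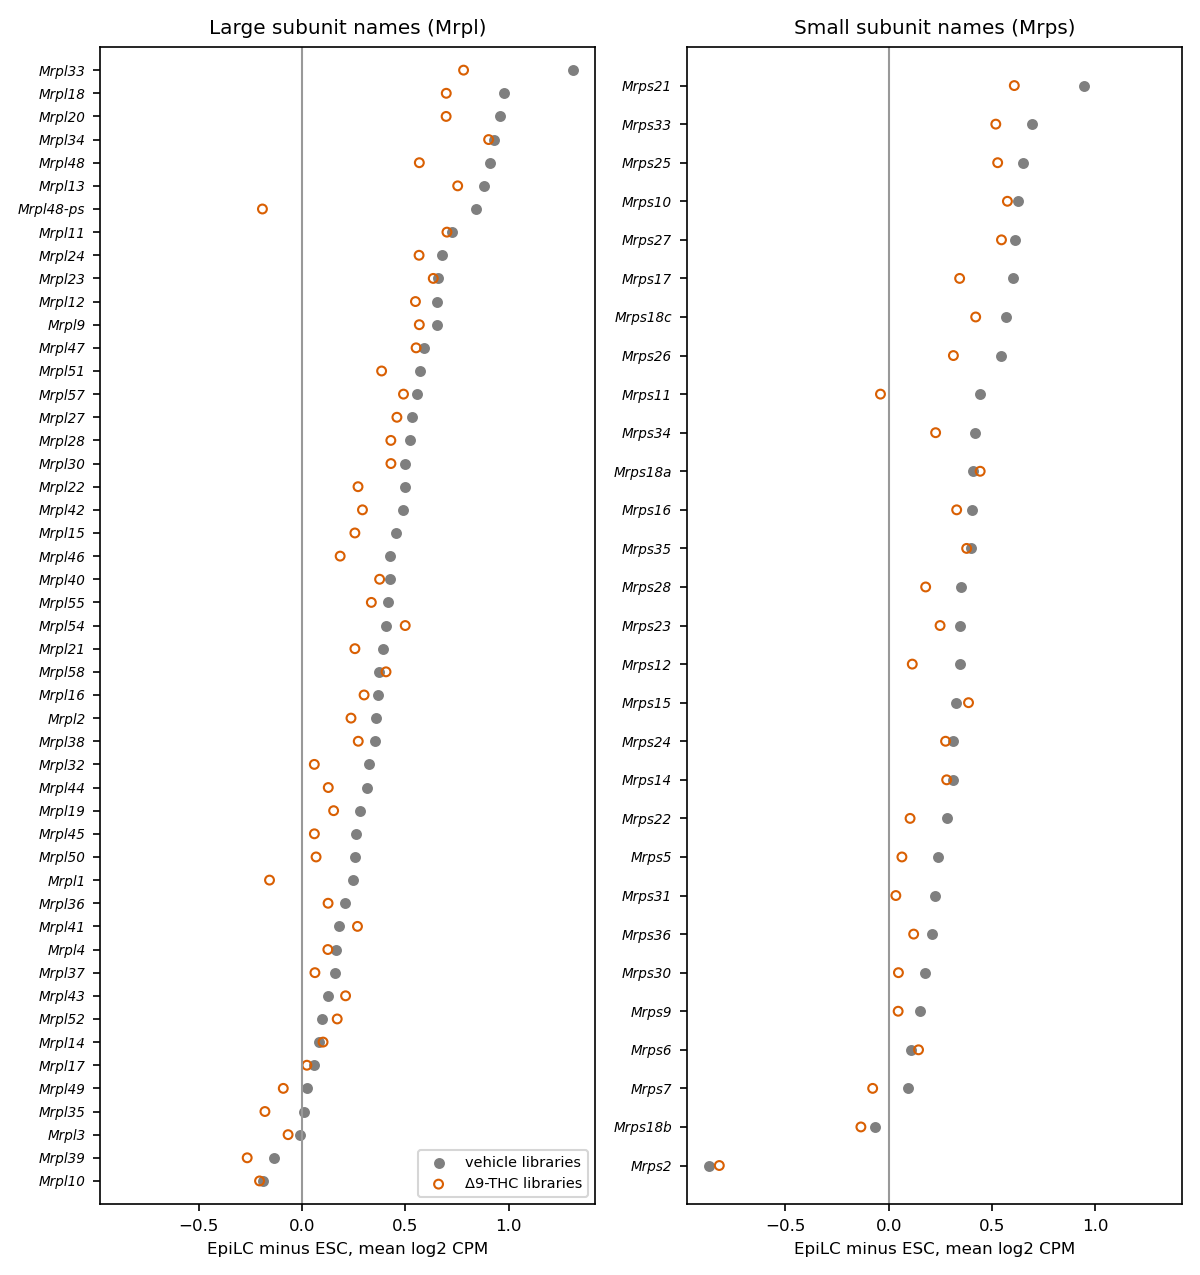
Difference in mean log2 CPM between EpiLCs and ESCs for each of the 49 Mrpl and 29 Mrps genes, with filled grey points for the 3 vehicle libraries of each cell type and open orange points for the 3 Δ9-THC libraries. Vehicle points lie right of 0 for 73 of 78 members, and Mrps2 is the lowest at -0.87.

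For ESCs, the comparison asked which members differ between Δ9-THC and the vehicle. Of the 78 members, 3 rose with Δ9-THC and none fell at a Benjamini-Hochberg adjusted p of at most 0.05 over all 13104 genes tested with edgeR. None of these 3 calls held with a block by replicate number, where nearly all calls over all genes were lost too. The 3 members (3.85%), all of the large subunit, compare with 6.91% of all genes called in either direction and 3.37% called higher. At an unadjusted p under 0.05 there were 10 members (12.8%), against 28.7% of all genes. DESeq2 called 2 members, Mrpl1 and Mrpl18. The share of all genes that DESeq2 called in ESCs is not given here, so this count is not read as a result about the members. As a group the members stood near 0, with 43 of 78 lower (55.1%, against 48.9% of all genes) and a median log2(fold-change) of -0.010 against 0.0041. The medians were -0.016 for the Mrpl and 0.00062 for the Mrps genes. The median of the members turned positive without vehicle library 3 (0.029) or without Δ9-THC library 3 (0.029), and 32 were lower in each case.

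Mrpl1 (ENSMUSG00000029486, chr5:96209493-96266727), a protein of the large subunit, had 51.9, 52.7 and 54.0 CPM in vehicle ESCs and 63.0, 62.1 and 60.5 CPM with Δ9-THC (log2(fold-change) = 0.24, SE = 0.0323, edgeR adjusted p = 0.0283). The groups were far apart for their spread, and all 3 exposed libraries were above all 3 vehicle libraries. Mrpl33 (ENSMUSG00000106918, chr5:31596935-31664384) had 5.33, 5.46 and 5.85 CPM with the vehicle and 7.68, 7.50 and 6.97 CPM with Δ9-THC (log2(fold-change) = 0.43, SE = 0.0691, edgeR adjusted p = 0.0304), again without overlap. Its vehicle libraries held 149 to 174 counts. The GENCODE gene begins well before the RefSeq start, whose 250 upstream bases are chr5:31613701-31613950. Reads of Mrpl33 may thus come in part from outside the usual transcript, which was not tested. Mrpl32 (ENSMUSG00000015672, chr13:14608184-14613165), whose start lies 75 bases from that of the proteasome gene Psma2, had 36.4, 35.0 and 37.1 CPM and 40.6, 42.1 and 39.8 CPM (log2(fold-change) = 0.19, SE = 0.0388, edgeR adjusted p = 0.0420). Every exposed library was higher than every vehicle library here too. None of these 3 calls held when any 1 of the 6 libraries was left out, with edgeR adjusted p of 0.0721 to 0.134 for Mrpl1 and for Mrpl33 and of 0.0822 to 0.145 for Mrpl32. The values themselves moved little, with log2(fold-change) of 0.23 to 0.26 for Mrpl1, 0.40 to 0.47 for Mrpl33 and 0.17 to 0.21 for Mrpl32, and over all genes the 906 calls became 0 to 1 in these fits. They were also lost, at the same sign, with offsets for the GC content and transcript length of the genes (edgeR adjusted p = 0.269 for Mrpl1, 0.0989 for Mrpl33 and 0.419 for Mrpl32), where the values were 0.11, 0.31 and 0.075.

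Groups did not overlap in ESCs for 9 members that were higher with Δ9-THC, with 14.2% of all genes as the background, and for 6 that were lower, with 18.8% as the background. Both shares of the members, 11.5% and 7.69%, were below these. The count of lower members depended on the scaling: with CPM of the table total 13 in place of 6 were lower without overlap, and 58 in place of 43 were lower. Mrpl18 had 37.8, 35.5 and 39.8 CPM with the vehicle and 44.2, 46.9 and 41.9 CPM with Δ9-THC (log2(fold-change) = 0.25, SE = 0.0577, edgeR adjusted p = 0.0516). It lay just outside the threshold with edgeR and within it with DESeq2 (adjusted p = 0.0278). The pseudogene Mrpl48-ps had the highest log2(fold-change), 0.47 (SE = 0.146, edgeR adjusted p = 0.282), from 12 to 20 counts per library. At the other end was Mrps15, a protein of the small subunit, with 49.7, 51.8 and 56.6 CPM and 47.8, 46.0 and 41.7 CPM (log2(fold-change) = -0.20, SE = 0.0672, edgeR adjusted p = 0.107). Mrpl16 followed the same pattern, with 39.9, 41.3 and 43.0 CPM and 38.5, 37.3 and 35.7 CPM (log2(fold-change) = -0.14, SE = 0.0444, edgeR adjusted p = 0.10). Neither of these overlapped, and neither passed the test. The other low values, -0.19 for Mrpl52, -0.17 for Mrpl34 and -0.16 for Mrps18b, came with overlapping groups. With single libraries left out, they ranged from -0.28 to -0.097 for Mrpl52, from -0.23 to -0.076 for Mrpl34 and from -0.21 to -0.12 for Mrps18b.

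**Figure D2:**
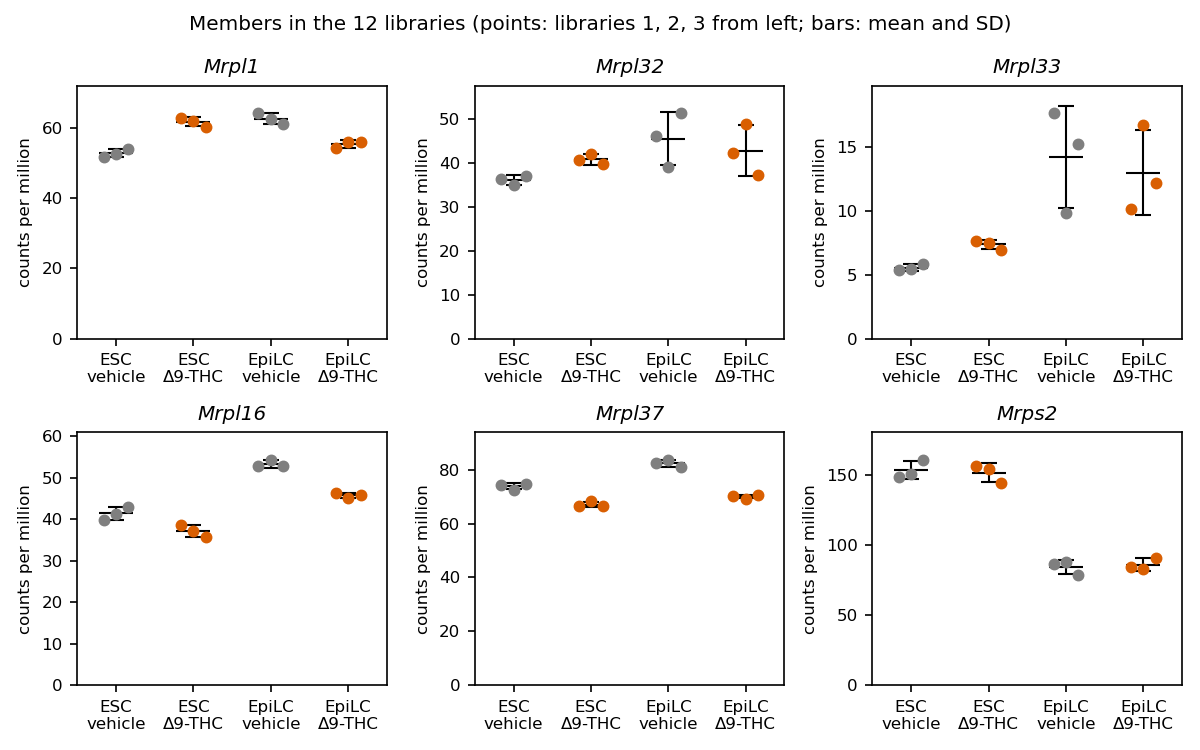
CPM in each of the 12 libraries for Mrpl1, Mrpl32, Mrpl33, Mrpl16, Mrpl37 and Mrps2, with points for libraries and lines for the mean ± SD of each group (n = 3). Mrpl1 shows exposed libraries above the vehicle in ESCs (60.5 to 63.0 against 51.9 to 54.0 CPM) and below it in EpiLCs (54.2 to 56.2 against 61.3 to 64.3 CPM).

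For EpiLCs, the same comparison was made over 13717 genes. On average over the 3 libraries nearly all members were lower with Δ9-THC, though no member passed the test and library 2 stood apart in each group. The log2(fold-change) was below 0 for 74 of 78 members (94.9%, against 49.3% of all genes), with a median of -0.14 against 0.0030 over all genes. By subunit, 47 of 49 Mrpl and 27 of 29 Mrps genes were lower, with medians of -0.14 each, and a difference between them was not tested. Against the vehicle library of the same number, the medians were -0.20 (Mrpl) and -0.31 (Mrps) in number 1. They were 0.047 and 0.068 in number 2 and -0.28 and -0.19 in number 3. With edgeR 0 members were called, as were 0.0% of all genes, and DESeq2 called 0 members and 87 genes. An unadjusted p under 0.05 was found for 15 members (19.2%), all lower, and for 15.1% of all genes. With a block by replicate number almost no member reached this level, as given with the processing alternatives. All 3 exposed libraries lay below all 3 vehicle libraries for 20 members (25.6%), compared with 10.6% of all genes, and above them for 0 members, compared with 11.2%. A fit of the 12 libraries of both cell types together called 3.31% of its genes in EpiLCs. Among them were 2 of the 78 members, Mrpl16 and Mrpl37, a smaller share of the members than of all genes. This fit had no block by replicate number, and its difference between exposures in EpiLCs was not tested with one.

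Mrpl37 (ENSMUSG00000028622, chr4:107055874-107066868), a large subunit protein, had 82.4, 83.9 and 81.1 CPM in vehicle EpiLCs and 70.4, 69.3 and 70.6 CPM with Δ9-THC (log2(fold-change) = -0.23, SE = 0.0506, edgeR adjusted p = 0.171). The exposed libraries were close together and well below the vehicle libraries. In the 12-library fit its log2(fold-change) was -0.23 (edgeR, adjusted p = 0.0234). Mrpl16 (ENSMUSG00000024683, chr19:11770391-11774960), also of the large subunit, had 52.9, 54.4 and 52.8 CPM with the vehicle and 46.3, 45.1 and 45.8 CPM with Δ9-THC (log2(fold-change) = -0.22, SE = 0.0522, edgeR adjusted p = 0.174, and 0.0421 in the 12-library fit). Its groups were likewise apart. In ESCs, Mrpl37 had 74.4, 72.6 and 74.6 CPM with the vehicle and 66.7, 68.3 and 66.5 CPM with Δ9-THC (log2(fold-change) = -0.12, SE = 0.0285, edgeR adjusted p = 0.0537), so that its exposed libraries were the lower ones in both cell types.

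The 3 lowest values in EpiLCs belonged to the pseudogene and 2 small subunit genes. Mrpl48-ps had 0.870, 0.916 and 0.931 CPM with the vehicle and 0.590, 0.556 and 0.540 CPM with Δ9-THC (log2(fold-change) = -0.68, SE = 0.138, edgeR adjusted p = 0.210), on 14 to 29 counts per library. Mrps11, a small subunit protein, had 21.3, 17.6 and 17.9 CPM and 12.6, 15.5 and 14.9 CPM (log2(fold-change) = -0.40, SE = 0.113, edgeR adjusted p = 0.212). Neither gene overlapped between the exposures. For Mrps12, the decoding centre protein, the values were 44.6, 35.4 and 44.2 CPM and 29.8, 37.0 and 30.0 CPM (log2(fold-change) = -0.36, SE = 0.126, edgeR adjusted p = 0.270). Here vehicle library 2 lay below Δ9-THC library 2, so the groups overlapped. Mrpl20 (-0.29) and Mrps34 (-0.29) had overlapping groups as well. With single libraries left out, Mrpl20 ranged from -0.40 to -0.21 and Mrps34 from -0.38 to -0.18. The 4 members with a value above 0 were Mrps6 (0.068), Mrpl43 (0.046), Mrps2 (0.032) and Mrpl47 (0.014). Their signs rested on single libraries. Without vehicle library 2 or without Δ9-THC library 2, Mrps6 was at -0.044 and -0.062, Mrpl43 at -0.11 and -0.13 and Mrpl47 at -0.043 and -0.062. Mrps2 was at -0.011 without vehicle library 3 and at -0.018 without Δ9-THC library 3. The next was Mrpl9, at -0.0074, with 57.5, 58.8 and 58.3 CPM and 58.7, 57.7 and 57.3 CPM, and it stood at 0.00067 without vehicle library 2.

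The differences varied with the length and base composition of the genes. Members have shorter transcripts than other genes, with a median of 1316 bases against 3025 over the coding genes in both tables, and a like GC content of 50.1% against 50.5%. Over all genes of the EpiLC table the log2(fold-change) correlated with transcript length (Spearman's rho = 0.367) and with GC content (rho = -0.311), where the genes are not independent of each other. In ESCs these were 0.046 and -0.549. Across the 78 members alone they were weaker in EpiLCs, at 0.156 for length and -0.119 for GC content, and in ESCs 0.226 and -0.476. With offsets for both, 66 of 78 members were lower in EpiLCs, with a median of -0.086 (-0.076 for Mrpl and -0.13 for Mrps genes). The median also depended on library 2, being -0.20 without vehicle library 2 and -0.22 without Δ9-THC library 2, and it was -0.11 without vehicle library 3. The cytosolic ribosomal protein genes (79 of 80 lower, median -0.12) and the nuclear respiratory chain genes (78 of 80 lower, median -0.16) had like values in EpiLCs, with 0 calls each by edgeR (4 and 12 at an unadjusted p under 0.05). In ESCs they had medians of -0.051 (63 of 81 lower) and -0.016 (47 of 80 lower), with 1 and 2 called lower. The 10 genes of the mitochondrial genome went the other way, with 10 of 10 higher in EpiLCs (median 0.18, 0 called by edgeR and 0 at an unadjusted p under 0.05, with overlapping groups in all 10) and 8 of 10 higher in ESCs (median 0.11, 1 called higher). The naive pluripotency genes, markers of the ESC state, were higher with Δ9-THC in EpiLCs for 9 of 11, with a median of 0.15 and 3 without overlap, and 0 were called by edgeR (3 at an unadjusted p under 0.05, 2 of them higher). In ESCs 8 of 11 were lower, with a median of -0.023 and 0 calls (3 at that level). Of the fibroblast genes 3 of 4 were lower with Δ9-THC in EpiLCs, with a median of -0.32 and 2 without overlap, and edgeR called 0 (1 at an unadjusted p under 0.05, Col1a1).

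**Figure D3:**
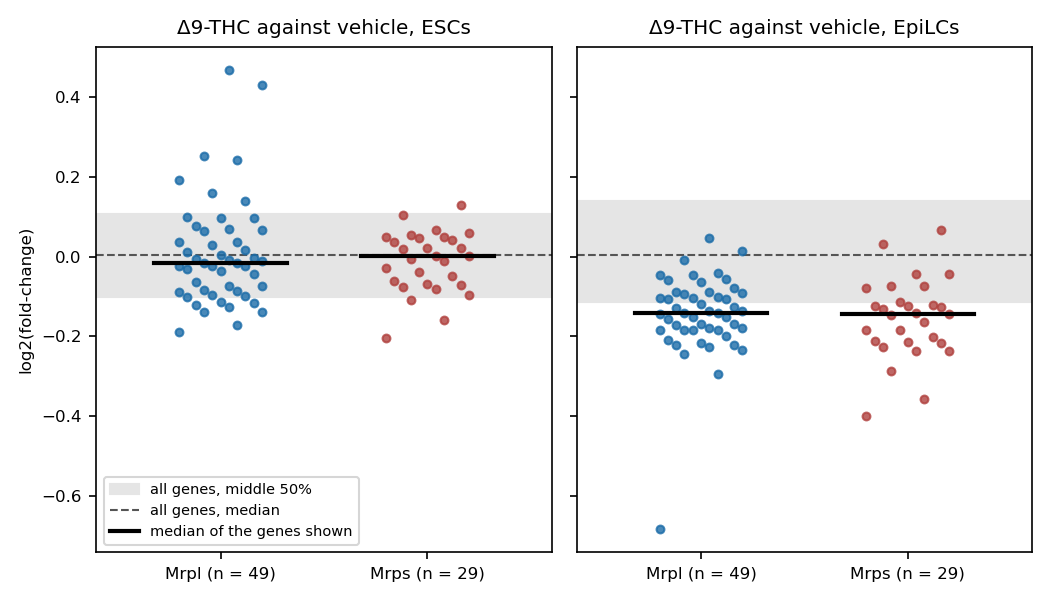
The log2(fold-change) of Δ9-THC against the vehicle for the 49 Mrpl and 29 Mrps genes in ESCs (left) and EpiLCs (right), with black lines for their medians, a dashed line for the median of all genes tested and a grey band for the middle 50% of them. The members centre near 0 in ESCs and at -0.14 in EpiLCs for both subunits.

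An interaction over the 12 libraries tested whether Δ9-THC acted differently on a member in EpiLCs and in ESCs. With edgeR 0 of the 78 members were called, against 4 of 12410 genes (0.0322%), and 12 members (15.4%) had an unadjusted p under 0.05, near the 13.7% of all genes (DESeq2 was not run on this contrast). In simulated data, with independent libraries and a set spread, this fit found none of the smallest changes tried, and most members show smaller ones. The libraries here are not independent, so the simulated result may not carry over to them. The count of 0 thus says little of the members. The interaction was below 0, that is lower in EpiLCs than in ESCs, for 68 of 78 members (87.2%, against 47.1% of all genes), with a median of -0.11 against 0.014. Mrpl1 came closest to the threshold. In EpiLCs it had 64.3, 62.6 and 61.3 CPM with the vehicle and 54.2, 56.0 and 56.2 CPM with Δ9-THC (log2(fold-change) = -0.18, SE = 0.0529, edgeR adjusted p = 0.218). Its exposed libraries thus all lay below the vehicle in EpiLCs and all above it in ESCs. The interaction was -0.41 (SE = 0.0663, edgeR adjusted p = 0.0526), which did not pass. Mrpl32 and Mrpl33, also higher in exposed ESCs, had log2(fold-change) values of -0.089 and -0.13 in EpiLCs with overlapping groups, and interactions of -0.26 (edgeR, adjusted p = 0.455) and -0.54 (edgeR, adjusted p = 0.449).

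Other genes of the pathway were read from lists, whose calls in ESCs stand beside 6.91% of all genes called. No call of a list gene named here held without any 1 of the 6 ESC libraries (lowest edgeR adjusted p = 0.0721, highest 0.154) or with the offsets for GC content and length (Rbfa 0.110, Rpusd3 0.0982, Tfam 0.0836, Polrmt 0.541, Gabpa 0.447, Pou3f1 0.0798, Rpl13 0.0989, Cox6b2 0.0836, Ndufb6 0.0664 and mt-Nd6 0.786). With a block by replicate number each of these calls was lost too, at values close to those of the main fit. The edgeR adjusted p then ran from 0.392 for mt-Nd6 to 0.429 for Polrmt. With all 12 libraries in 1 fit only the call of Pou3f1 held (edgeR adjusted p = 0.0294). Gabpa was also lost with RLE scaling (edgeR adjusted p = 0.0516) and Polrmt with DESeq2 (adjusted p = 0.0541). Without 1 library the values of these genes kept their sign and much of their size, with 0.221 to 0.226 for Tfam and 0.34 to 0.45 for mt-Nd6. With the offsets the values were -0.27 for Rbfa, -0.43 for Rpusd3, 0.16 for Tfam, -0.045 for Polrmt, 0.056 for Gabpa, -0.75 for Pou3f1, -0.10 for Rpl13, -0.24 for Cox6b2, -0.36 for Ndufb6 and 0.026 for mt-Nd6. The 5 mitoribosomal proteins with other names (Dap3, Ptcd3, Chchd1, Aurkaip1 and Gadd45gip1) had 0 calls by edgeR in ESCs, with 1 gene, Ptcd3, at an unadjusted p under 0.05, and 0 calls in EpiLCs, with 0 genes at that level. Their medians were -0.022 in ESCs and -0.069 in EpiLCs, and all 5 were higher in vehicle EpiLCs than in vehicle ESCs, by a median of 0.32. Of 25 genes for mitoribosome assembly and rRNA modification, 2 fell in ESCs with Δ9-THC. Rbfa, a small subunit assembly factor, had 14.3, 13.1 and 13.7 CPM with the vehicle and 9.72, 10.7 and 10.3 CPM with Δ9-THC (log2(fold-change) = -0.40, SE = 0.0594, edgeR adjusted p = 0.0301). Rpusd3, of the pseudouridine synthase family, had 3.49, 3.59 and 3.44 CPM and 2.38, 2.30 and 2.45 CPM (log2(fold-change) = -0.55, SE = 0.0768, edgeR adjusted p = 0.0283). In each the groups did not overlap. The median over the 25 genes was -0.0084 in ESCs and -0.10 in EpiLCs, where edgeR called 0 of them. An unadjusted p under 0.05 was found for 7 of the 25 in ESCs (28.0%, against 28.7% of all genes). In EpiLCs it was found for 6 (24.0%, against 15.1% of all genes).

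Of 16 mitochondrial translation factors 14 were in the tables, and edgeR called 0 of them in ESCs (3 at an unadjusted p under 0.05) and 0 in EpiLCs (2 at that level), with medians of -0.026 and -0.055. The mitochondrial transcription list held 4 genes, of which 1 rose and 1 fell in ESCs. Tfam, the mitochondrial transcription factor that also packages mitochondrial DNA, had 105, 105 and 107 CPM with the vehicle and 123, 123 and 121 CPM with Δ9-THC (log2(fold-change) = 0.22, SE = 0.0235, edgeR adjusted p = 0.0265). Polrmt, the mitochondrial RNA polymerase, had 35.6, 35.5 and 37.3 CPM and 31.4, 31.4 and 29.8 CPM (log2(fold-change) = -0.21, SE = 0.0389, edgeR adjusted p = 0.0368). Both were without overlap and opposite in direction. Among nuclear regulators of mitochondrial genes, 9 of 10 were in the ESC table and 1 rose. This was Gabpa, the DNA-binding subunit of an ETS-family factor, with 197, 184 and 186 CPM and 202, 216 and 214 CPM in ESCs (log2(fold-change) = 0.17, SE = 0.0390, edgeR adjusted p = 0.0498). In EpiLCs edgeR called 0 genes of the transcription list (0 at an unadjusted p under 0.05) and 0 of the regulators (1 at that level, Myc). The medians of the transcription list were 0.15 in ESCs and -0.071 in EpiLCs, and those of the regulators 0.033 and -0.0073. Among the marker lists, the primed gene Pou3f1 had 3.59, 3.96 and 4.01 CPM with the vehicle and 2.17, 1.87 and 1.83 CPM with Δ9-THC in ESCs, where it fell (log2(fold-change) = -0.96, SE = 0.101, edgeR adjusted p = 0.0265). Of the 6 primed genes tested in ESCs, 4 were lower and 2 higher, and Otx2 was higher without overlap (log2(fold-change) = 0.22, SE = 0.0694, edgeR adjusted p = 0.122). In EpiLCs 4 of 7 were higher, with 0 calls by edgeR and 0 at an unadjusted p under 0.05.

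Among the other groups of genes, 4 were called in ESCs. Rpl13, of the cytosolic large subunit, had 1399, 1394 and 1458 CPM with the vehicle and 1262, 1267 and 1209.5 CPM with Δ9-THC (log2(fold-change) = -0.17, SE = 0.0323, edgeR adjusted p = 0.0384). Cox6b2, a subunit of cytochrome c oxidase, had 28.1, 28.3 and 28.4 CPM with the vehicle and 23.3, 23.2 and 23.1 CPM with Δ9-THC (log2(fold-change) = -0.27, SE = 0.0328, edgeR adjusted p = 0.0278). Ndufb6, a subunit of complex I, had 28.6, 30.7 and 29.3 CPM with the vehicle and 24.7, 23.0 and 24.2 CPM with Δ9-THC (log2(fold-change) = -0.29, SE = 0.0473, edgeR adjusted p = 0.0304). These 3 fell without overlap of the groups. The mitochondrial gene mt-Nd6, for another subunit of complex I, rose without overlap, with 325, 302 and 280.5 CPM with the vehicle and 364, 393 and 419 CPM with Δ9-THC (log2(fold-change) = 0.39, SE = 0.0705, edgeR adjusted p = 0.0357).

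The members lie on 17 chromosomes, with 11 on chromosome 11 and 8 on chromosome 17, and so do not form a cluster. Many start close to a gene on the other strand: 23 of the 77 coding members (29.9%) had a divergent neighbour with a start less than 1000 bases away, compared with 1447 of 11607 coding genes in both tables (12.5%). Pairs whose annotated starts overlap beyond a set limit were left out of both counts. The members Mrps11 and Mrpl46, which start close together on opposite strands of chromosome 7 by RefSeq, were thus not counted. Examples, chosen after the distances were seen, are Mrps34 with Eme2 and Mrps18c with Helq, at 29 bases each, Mrps18b with Ppp1r10 at 45, Mrpl37 with Cyb5rl at 120 and Mrps12 with Sars2 at 172 bases. Exons overlap other annotated genes over more than 20% of their bases in 9 members, Mrpl19, Mrpl24, Mrpl43, Mrpl47, Mrps18b, Mrps18c, Mrps25, Mrps27 and Mrps34, whose counts are less certain.

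Since most members were higher in EpiLCs, their start regions were searched for short motifs. Promoter sequences from 250 bases before to 50 bases after the start, from RefSeq (GRCm38.p6), matched 68 of the 78 members by symbol. Both strands were searched for CCGGAAG (ETS factors), GCGCNTGCG (NRF1), AAGATGGC (YY1), CCAAT and TATAAA, letters chosen with the matches seen. The ETS letters were in 24 member promoters (35.3%), 13 of 42 Mrpl and 11 of 26 Mrps, compared with 19.4% of the 9447 promoters of genes in both tables and 9.12% of all 27025 promoters. For NRF1 the shares were 26.5% of members (18), 14.9% and 6.59%, and for YY1 17.6% (12), 5.02% and 2.88%. At least 1 of these 3 motifs was in 42 members (61.8%), compared with 34.4% and 16.6%, and at least 2 of them in 12 members (17.6%), compared with 4.72% and 1.91%. CCAAT was in 38.2%, 39.7% and 37.9%, and TATAAA in 5.88%, 6.36% and 14.2%. A match describes the letters in the window and not a bound site. The 42 members with a match and the 26 without had medians of -0.14 and -0.17 for the log2(fold-change) in EpiLCs, -0.0038 and -0.011 in ESCs, and 0.36 and 0.39 for the log2 difference between vehicle EpiLCs and vehicle ESCs.

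The 250 bases before the start are shown for 5 members on the plus strand, 5′ to 3′, with matches to the ETS, NRF1 or YY1 letters on either strand in capitals. Mrpl22 (chr11:58171414-58171663) holds an ETS match that begins 53 bases and an NRF1 match that begins 33 bases before the start. Mrpl45 (chr11:97315466-97315715) holds NRF1 matches beginning 119 and 37 bases before the start, and Mrpl34 (chr8:71464676-71464925), among the members with the largest increase in EpiLCs, an ETS match at 37 bases. Mrpl20 (chr4:155802628-155802877), also among those, and Mrps2 (chr2:28467816-28468065), the member with the largest decrease, hold none of the 3.
Mrpl22: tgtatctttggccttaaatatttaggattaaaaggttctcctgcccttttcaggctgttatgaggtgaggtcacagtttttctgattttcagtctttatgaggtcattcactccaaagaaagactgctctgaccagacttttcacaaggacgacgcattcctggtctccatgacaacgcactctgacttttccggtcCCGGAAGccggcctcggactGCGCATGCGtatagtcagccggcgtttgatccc
Mrpl45: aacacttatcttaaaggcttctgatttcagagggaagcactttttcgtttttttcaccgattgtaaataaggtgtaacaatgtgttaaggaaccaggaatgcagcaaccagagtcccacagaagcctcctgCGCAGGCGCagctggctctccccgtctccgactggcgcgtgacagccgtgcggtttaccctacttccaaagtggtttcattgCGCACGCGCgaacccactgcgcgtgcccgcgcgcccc
Mrpl34: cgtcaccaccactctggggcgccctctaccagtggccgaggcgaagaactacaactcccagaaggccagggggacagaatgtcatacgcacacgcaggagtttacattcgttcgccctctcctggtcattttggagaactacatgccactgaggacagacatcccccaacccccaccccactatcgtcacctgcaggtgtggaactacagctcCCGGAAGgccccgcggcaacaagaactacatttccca
Mrpl20: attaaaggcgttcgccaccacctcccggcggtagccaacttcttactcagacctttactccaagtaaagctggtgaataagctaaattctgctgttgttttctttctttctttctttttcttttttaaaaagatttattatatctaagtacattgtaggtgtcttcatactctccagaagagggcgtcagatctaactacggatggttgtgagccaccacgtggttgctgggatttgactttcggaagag
Mrps2: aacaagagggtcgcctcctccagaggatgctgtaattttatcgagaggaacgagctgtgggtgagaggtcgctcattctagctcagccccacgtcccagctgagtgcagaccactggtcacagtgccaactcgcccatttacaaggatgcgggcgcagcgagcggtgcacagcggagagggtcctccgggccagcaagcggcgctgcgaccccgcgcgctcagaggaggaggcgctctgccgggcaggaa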

How the data were processed

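The libraries were made by the authors from poly(A) RNA with 1 of 2 kits, which the labels do not assign to libraries. Per the submitters' notes reads were handled with bcl2fastq 2.19.1.403, FastQC, STAR, HTSeq and DESeq2, and the build is named as mm10 and as GRCm39. The authors counted uniquely mapped reads over exons without strand, removed genes with low counts and adjusted the counts with ComBat-seq for batches they do not name. The deposited values are these adjusted counts, whole numbers in a table per cell type. The 6 PGCLC libraries were not analysed here.

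Each cell type was tested with edgeR 4.0.16 (quasi-likelihood, TMM) in R 4.3.3 on genes with more than 10 counts in all, with Benjamini-Hochberg adjustment over all genes and a threshold of 0.05. The interaction used the 12 libraries in 4 groups. The log2 CPM used a prior count of 2. Gene models came from GENCODE M21 (GRCm38), promoters from RefSeq. Tables and figures came from Python 3.11.15 with pandas 2.3.3, scipy 1.17.1 and matplotlib 3.10.9. When tested on simulated data with independent libraries, unlike those here, the fits found most large and few small changes. In the interaction they found none of the small ones, and the limit set for the interaction there was lowered after a first run missed it.

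The members and lists were chosen with earlier results of these data known. Named members are those called (at most 10 a comparison), the 5 highest and 5 lowest log2(fold-change) in each cell type, the 5 largest increases and decreases between vehicle groups, the 3 highest and 3 lowest per length, and those with set roles. Mrpl37 and members named for a motif, a neighbour or a call by another fit were chosen after their values were seen. Genes of the other lists were named when called or to describe a list. Ptcd3, Myc, Otx2 and Col1a1 were named without a call, each at an edgeR unadjusted p under 0.05.

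The alternatives were RLE scaling, dropping the filter or asking for 10 counts in each library, a block by replicate number, offsets for GC content and transcript length (splines, 5 degrees of freedom) without and with the block, DESeq2 1.42.0, all 12 libraries in 1 fit, each library left out in turn, subunits by structure, coding members only, Δ9-THC libraries for the cell type difference and, added after seeing the data, the same alternatives for the number of lower members, and RLE scaling and CPM of the table total for group overlap, and all fits for called list genes.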

Additional observations from a re-analysis of the deposited data

How the results depend on the processing

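In ESCs, the 906 genes called became 5 with the replicate block, 4 with the GC and length offsets, 3 with both and 31 with all 12 libraries, and 0 to 1 without any 1 library. The 3 members called became 0 in each of these fits, block included, and 0 to 0 without any 1 library. With the block, the edgeR adjusted p was 0.414 for Mrpl1 and Mrpl33 and 0.432 for Mrpl32. Same-numbered vehicle and Δ9-THC libraries had a correlation of their deviations from the group means of -0.987 to -0.977 in ESCs and -0.985 to -0.979 in EpiLCs, and differently numbered ones 0.223 to 0.695. The adjusted counts thus varied with the number, and the main fits did not take this into account. What the numbers stand for beyond biological replicates is not given in the sources used here. Set against the vehicle library of the same number, 73, 29 and 71 of 78 members were lower in EpiLC Δ9-THC libraries 1, 2 and 3 (medians -0.23, 0.067 and -0.24), so number 2 ran the other way for most members. In ESCs these were 19, 27 and 68 (0.075, 0.052 and -0.18).

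In EpiLCs, DESeq2 called 87 genes and the fit of 12 libraries 411, among them 2 members. The number of members at an unadjusted p under 0.05 was 1 with the block. The count of lower members was 66 to 74 in the other fits and 67 to 76 without any 1 library, and the median log2(fold-change) -0.22 to -0.11 without any 1 library. In ESCs these ranges were 32 to 54 members and -0.037 to 0.029. The interaction gave 0 members in all its alternatives.

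Some small values in EpiLCs changed sign. Mrpl47 was -0.035 with the offsets and -0.036 with offsets and block, and Mrpl9 0.053 in each of these fits. Without 1 library, the ranges were -0.13 to 0.18 for Mrpl43, -0.062 to 0.053 for Mrpl47, -0.029 to 0.00067 for Mrpl9, -0.018 to 0.067 for Mrps2 and -0.062 to 0.23 for Mrps6. The cause of these changes was not tested.

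The median difference between EpiLCs and ESCs was 0.27 with the Δ9-THC libraries in place of the vehicle libraries, and 0.32 to 0.45 without any 1 library. With CPM of the table total, 13 members were lower without overlap in ESCs, a count for which the share of all genes was not taken. The 12 to 29 counts of Mrpl48-ps limit the precision of its values.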
